A study of Rattus norvegicus with 12 samples.

Results

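Arm D, a group of Sprague Dawley rats that received didymin while on a high-fat diet, was compared with the model group on the high-fat diet alone by RNA sequencing of whole liver. The comparison uses 6 of the 12 libraries of the study: D.1, D.4 and D.7 of arm D against M.5, M.6 and M2.1 of the model, chosen by their column names and not by any measured value. The other 6 are 3 libraries of normal rats (N.1, N.2 and N.3), which were given saline, and 3 of the other didymin arm (G.1, G.3 and G.4), also on the high-fat diet. The labels give 8 weeks as the length of the high-fat diet of the model. They name a low and a high dose of didymin but do not pair them with the letters D and G, so no dose is given here. Sprague Dawley rats are an outbred stock, and the labels give no sex, age or hour of sampling.

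Didymin is a flavonoid glycoside of citrus fruit, and a high-fat diet is used in rats to bring about fatty liver. Liver lipid handling follows the circadian clock, in which CLOCK or its relative NPAS2 pairs with BMAL1 (Arntl) to drive transcription from E-boxes, among others of the genes for the repressors PER, CRY and REV-ERB-alpha (Nr1d1). REV-ERB-alpha in turn represses Arntl and Npas2 by competing with ROR receptors for their binding sites. Kupffer cells, which are the macrophages that reside in liver, and sinusoidal endothelium lie beside the hepatocytes, so whole-liver RNA holds transcripts of all of them.

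Counts per library ran from 12469914 to 15521648 over all 12 libraries. The 13 genes of the mitochondrial genome took 16.02%, 5.62% and 5.88% of the counts in D.1, D.4 and D.7, and 18.8%, 44.1% and 4.90% in M.5, M.6 and M2.1, with overlap of the groups (exact permutation test, two-sided p = 0.4, where 3 libraries against 3 cannot go below 0.1). In arm G the library G.3 held 61.0%. M2.1 is named unlike the other model libraries, and on the first principal component of the 6 libraries, which carries 50.6% of the variance, it lay at −63.8, against 44.8 for M.5 and 70.1 for M.6. The arm D libraries lay between them, D.4 at −33.7, D.7 at −33.9 and D.1 at 16.6. On this component the model group was thus more spread out than arm D, and its libraries had the arm D libraries in their midst. On the second component, with 21% of the variance, D.1 lay outside the model at −38.6. D.4 and D.7 lay at −15.1 and −7.3 there, and M.5, M.6 and M2.1 at −21, 45.3 and 36.7. Hepatocyte markers summed to between 169000 and 178000 CPM (counts divided by a library total scaled with the trimmed mean of M-values, TMM) in arm D and between 86500 and 178000 in the model, the lowest in M.6, and all 15 were detected, as the tissue label implies.

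No gene passed an adjusted p of 0.05 between arm D and the model. Of 16558 genes in the tables, 12355 passed the filter on low counts, and the smallest adjusted p was 0.783 by edgeR's quasi-likelihood test with Benjamini-Hochberg adjustment (0 genes, 0% of those tested). Before adjustment, 776 genes had a p under 0.05 (6.28%), 376 of them higher in arm D (3.04%) and 400 lower (3.24%). The fold change was positive for 5773 genes (46.7%), and the median over all genes was −0.04 on the log2 scale. All 3 arm D libraries lay above all 3 model libraries in 733 genes (5.93%) and below them in 829 (6.71%). The unadjusted count was 318 without D.4, 473 without D.7 and 406 without M.6, but 1802 without M2.1 and 1429 without G.3, which is in the fit only for its spread. DESeq2 on the same 12 libraries called 14 of 12341 genes at an adjusted p of 0.05 (0.113%). Everything that follows on single genes is therefore given as levels and differences with unadjusted p-values. Values of 3 libraries are in CPM, in the order D.1, D.4, D.7 and M.5, M.6, M2.1, differences are log2 fold changes of arm D minus the model with a standard error (SE), and CPM are not scaled by gene length, so they compare libraries and not genes.

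Among the genes of smallest p, those higher in arm D were Gfra3, Pla1a, Lrg1, Hpgds, Akr1b1, Tspan15, Nr1d1, Tnfsf10, Cd48, Il10ra, Ccl6 and Csf2rb. Gfra3, a co-receptor for the neurotrophic factor artemin, was at 8.09, 13.5 and 7.93 CPM in arm D and 3.16, 2.61 and 3.52 in the model. Its difference was 1.66 ± 0.33 (SE) with an unadjusted p of 0.000286. The groups did not overlap, but the normal livers, at 7.56, 6.97 and 7.98 CPM, were near the lower arm D libraries. Pla1a, a phospholipase specific for phosphatidylserine, was at 12.3, 16.8 and 9.99 CPM against 6.56, 5.67 and 3.85, with no overlap. Its difference was 1.29 ± 0.29. Lrg1, a secreted glycoprotein of the acute phase, was at 44.7, 50.8 and 42.1 CPM against 22.9, 24.4 and 13.9, and each arm D library was above all 9 other libraries, where the highest was 40.4 in G.4. Akr1b1, aldose reductase, was at 12.8, 17.4 and 13.7 CPM against 7.94, 6.93 and 5.21, also above all 9 other libraries.

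Several of the others in this group are genes of white blood cells. Hpgds, the haematopoietic prostaglandin D synthase, was at 4.40, 8.95 and 8.90 CPM in arm D and 2.59, 1.26 and 2.71 in the model, a difference of 1.75 ± 0.40. Il10ra, the interleukin-10 receptor subunit, was at 1.84, 5.51 and 5.33 CPM against 1.22, 0.900 and 1.41. Cd48, a surface ligand of lymphoid and myeloid cells, was at 17.8, 30.5 and 20.4 CPM against 12.2, 9.36 and 11.2. In all 3 genes the arm D libraries were above the model, and D.1 was the lowest of arm D. Csf2rb, the shared beta chain of the interleukin-3 and GM-CSF receptors, differed by 1.65 ± 0.41, and Tnfsf10, the death ligand TRAIL, by 1.11 ± 0.27.

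Genes lower in arm D at the smallest p included Lonrf3, Eml5, Zfp612, Zfp354a, Fam222a, Zdhhc23, Rbm25l1, Usp38, Chka, Clpx and Ctif. Lonrf3, a RING finger protein, was at 1.63, 1.09 and 1.45 CPM in arm D and 3.40, 6.30 and 6.51 in the model, a difference of −1.96 ± 0.40 with an unadjusted p of 0.00035. The arm D libraries lay below all 9 others, of which N.2 was the lowest at 2.64. Eml5, a microtubule-associated protein, was at 3.05, 2.81 and 7.69 CPM against 15.7, 15.7 and 14.5. Its model libraries lay close together and above all 9 others, while D.7 was in the range of arm G and the normal livers and D.1 and D.4 were below it. Usp38, a deubiquitinase, was at 32.9, 31.3 and 32.1 CPM against 52.7, 59.2 and 55.5, with a spread between libraries that was small beside the difference of −0.80 ± 0.22. Zfp354a, a zinc finger protein, was at 18.7, 8.43 and 8.71 CPM against 33.1, 31.1 and 70.9, and Zfp612 at 3.69, 2.70 and 3.57 against 8.99, 23.6 and 7.81. In Zfp612, Rbm25l1, Zdhhc23, Chka and Clpx the highest of the 6 libraries was M.6, the model library with the most mitochondrial counts. With the mitochondrial share as a covariate the difference of Zfp612 was −1.58 in place of −2.01, and that of Rbm25l1 was −1.29 in place of −1.60. Without M.6 and G.3 they were −1.31 and −1.01.

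**Figure D1:**
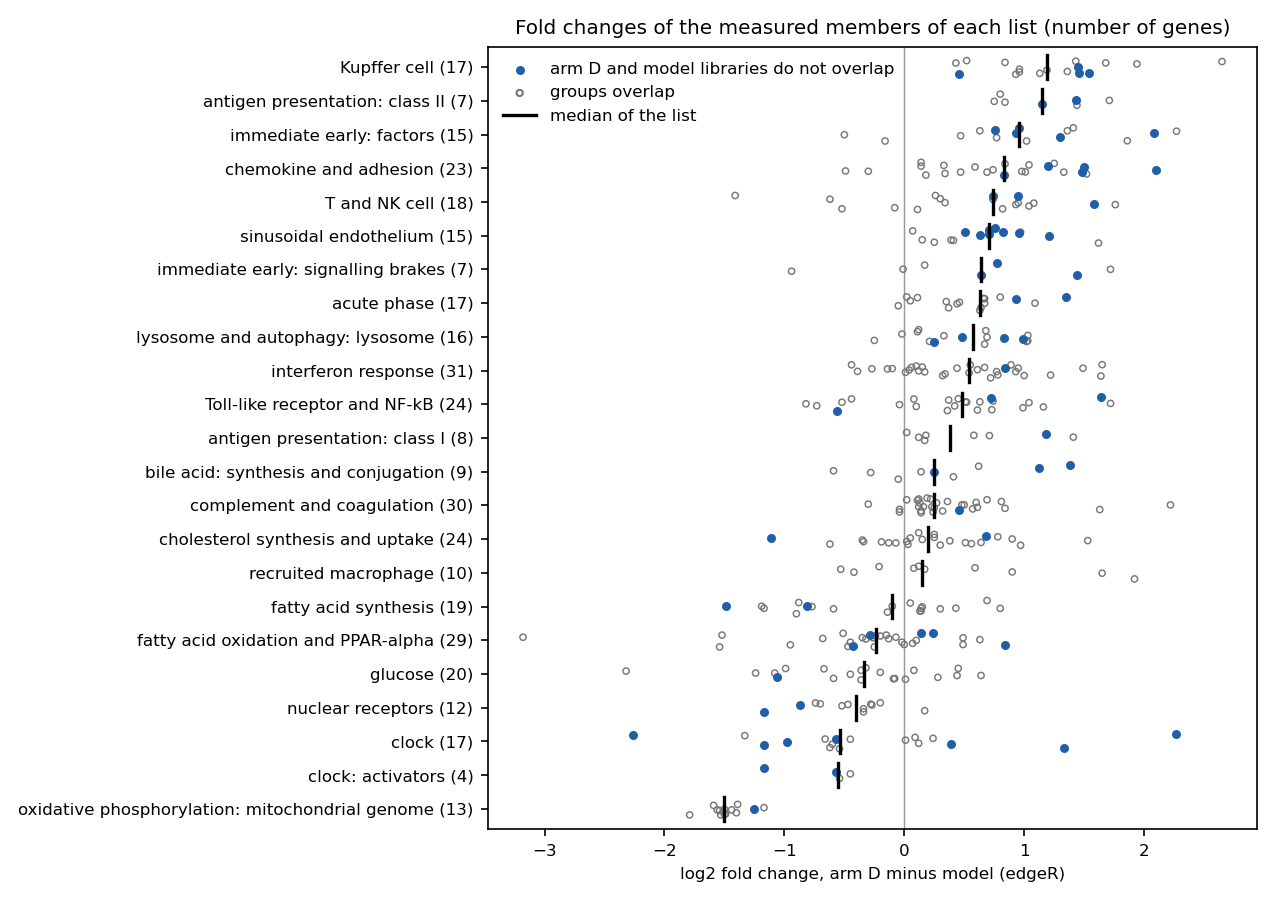
Log2 fold change of arm D minus the model (x axis) for each measured member of 23 gene lists (y axis, with the number of genes), with filled points where the 3 arm D and the 3 model libraries do not overlap, open points where they do, and a bar at the median of the list. The medians run from 1.19 for Kupffer cell markers to −1.5 for the genes of the mitochondrial genome, and no gene shown passed the adjusted test.

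Genes of the circadian clock lay on both sides. Nr1d1, Dbp and Nr1d2 were higher in arm D, while Npas2, Clock, Noct and Cry1 were lower, each without overlap of the 3 arm D and 3 model libraries. These were 17.6% and 23.5% of the tested clock genes, against 5.93% and 6.71% of all genes. Of 20 genes listed, 17 were tested. Of these 7 had a positive and 10 a negative difference, and 2 were higher and 3 lower at an unadjusted p under 0.05 (11.8% and 17.6%, against 3.04% and 3.24% of all genes). The count of lower genes was 5 without M.5, and 2 without D.4 or without D.7. The median was −0.54, but −0.07 without M2.1.

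The promoters of 4 clock genes are shown: Nr1d1 and Dbp, known targets of CLOCK and BMAL1, and Arntl and Npas2, known targets of REV-ERB-alpha. These pairs were picked with their directions here known, positive for the first and negative for the second. Other targets of CLOCK and BMAL1 did not go with Nr1d1 and Dbp. Per1, Per2 and Cry1 differed by −0.60, −1.33 and −0.98, and Per3 and Cry2 by 0.01 and 0.09. Arntl overlapped between the groups. The promoter windows are from RefSeq on the GRCr8 build, from 250 bases before the annotated start to 50 after it, in the direction of the gene. The motif CACGTG, the E-box, which reads the same on both strands, and AGGTCA, the core bound by ROR and REV-ERB receptors, searched on both strands, are in capitals where present. CACGTG stood in 6.42% and AGGTCA in 16.2% of the 33469 promoters of this length in the table.
Nr1d1, chr10:84229405-84229704, minus strand: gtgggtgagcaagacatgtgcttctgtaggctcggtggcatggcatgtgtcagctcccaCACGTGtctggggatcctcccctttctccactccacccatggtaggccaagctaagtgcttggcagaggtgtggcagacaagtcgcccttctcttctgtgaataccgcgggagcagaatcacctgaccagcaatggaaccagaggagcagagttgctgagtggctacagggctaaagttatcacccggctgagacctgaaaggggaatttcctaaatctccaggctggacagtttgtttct
Dbp, chr1:105312006-105312305, plus strand: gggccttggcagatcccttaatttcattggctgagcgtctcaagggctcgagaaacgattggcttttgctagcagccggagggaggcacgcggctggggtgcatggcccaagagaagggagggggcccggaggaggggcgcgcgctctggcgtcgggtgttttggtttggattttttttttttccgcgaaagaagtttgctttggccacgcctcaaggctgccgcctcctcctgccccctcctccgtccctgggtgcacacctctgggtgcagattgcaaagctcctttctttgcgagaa
Arntl, chr1:176766078-176766377, plus strand: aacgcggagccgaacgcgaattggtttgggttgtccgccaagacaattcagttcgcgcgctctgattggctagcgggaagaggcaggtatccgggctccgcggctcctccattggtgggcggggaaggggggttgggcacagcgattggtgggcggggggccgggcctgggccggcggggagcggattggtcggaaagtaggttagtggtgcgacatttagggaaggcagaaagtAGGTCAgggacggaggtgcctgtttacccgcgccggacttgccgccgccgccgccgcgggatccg
Npas2, chr9:48959315-48959614, plus strand: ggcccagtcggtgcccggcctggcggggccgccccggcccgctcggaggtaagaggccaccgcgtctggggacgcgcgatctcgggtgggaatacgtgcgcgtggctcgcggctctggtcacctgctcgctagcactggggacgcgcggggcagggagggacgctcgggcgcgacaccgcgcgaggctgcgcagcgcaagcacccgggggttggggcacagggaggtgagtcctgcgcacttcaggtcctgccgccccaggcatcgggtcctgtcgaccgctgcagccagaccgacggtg
The E-box of Nr1d1 lies at −191 from the start, and the AGGTCA of Arntl at −15. The windows of Dbp and Npas2 held neither motif, nor did the other window the table lists for Nr1d1, at chr10:84231763-84232062. Tef and Bhlhe40 held an E-box at −198 and −220, and Nr1d2 an AGGTCA at −187. These matches describe the letters of the windows, and binding was not measured.

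Nr1d1, the gene of REV-ERB-alpha whose window holds the E-box shown, was at 33.3, 37.9 and 43.6 CPM in D.1, D.4 and D.7 and at 5.02, 3.69 and 14.9 in M.5, M.6 and M2.1. The means were 38.3 ± 5.19 and 7.87 ± 6.13 CPM (SD, n = 3 each). Every arm D library was above all 9 others, among which arm G held 31.8, 15.2 and 16.6 CPM and the normal livers 22.4, 18.9 and 7.16. The difference was 2.27 ± 0.54, with an unadjusted p of 0.00125 and an adjusted p of 0.783 by edgeR's quasi-likelihood test with Benjamini-Hochberg adjustment. It was between 1.93 and 3.13 when any 1 of the 12 libraries was left out, and 2.07 with the mitochondrial share as a covariate. Against arm G the difference was 0.85 ± 0.52, which did not pass. Its paralogue Nr1d2 was at 29.0, 34.5 and 33.0 CPM in arm D and 23.7, 23.9 and 26.1 in the model, without overlap, but the difference of 0.39 ± 0.21 was small.

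Among the other repressors, Cry1 was at 5.25, 3.16 and 6.23 CPM in arm D and 6.64, 12.3 and 9.98 in the model, a difference of −0.98 ± 0.48. Per2 was at 5.25, 3.33 and 7.57 CPM against 6.40, 25.0 and 9.38. The groups of Per2 overlapped, and M.6 and the arm G library G.3, at 26.9, stood apart from all others. Without M.6 and G.3 its difference was −0.53 in place of −1.33. Per1 differed by −0.60 ± 0.44, and Per3 and Cry2 by 0.01 ± 0.65 and 0.09 ± 0.35, both of which turned sign with 1 library left out.

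All 4 tested activators had a negative difference, with a median of −0.55 that was −0.32 without M2.1. Npas2 was at 14.9, 9.06 and 12.1 CPM in arm D and 35.9, 24.7 and 20.6 in the model, a difference of −1.17 ± 0.33 with an unadjusted p of 0.00389. The normal livers, at 15.8, 15.1 and 14.9 CPM, and 2 of the arm G libraries, at 12.3 and 11.7, were near arm D. Clock was at 40.7, 33.7 and 35.3 CPM against 47.2, 50.3 and 65.2, a difference of −0.57 ± 0.21. Arntl, at 24.5, 17.4 and 17.3 CPM against 19.9, 26.3 and 34.7, overlapped between the groups and differed by −0.45 ± 0.26. Rora, whose product drives the sites that REV-ERB-alpha represses, differed by −0.54 ± 0.46, and by 0.10 without M2.1. For the activators as a group 2 of 4 were lower at an unadjusted p under 0.05 (50%, against 3.24% of all genes), and 1 of 4 without D.4, D.7 or M2.1.

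Clock output factors went both ways. Dbp, which activates D-box genes of liver metabolism, was at 8.66, 15.1 and 15.6 CPM in arm D and 3.56, 6.30 and 5.80 in the model, a difference of 1.33 ± 0.39. The normal livers were lower still, at 2.82, 2.22 and 3.13, and against them the difference was 2.27 ± 0.41. Its relatives Tef and Hlf differed from the model by 0.24 ± 0.23 and 0.12 ± 0.58. Nfil3, which represses the same D-box genes, was at 52.8, 49.2 and 46.1 CPM against 68.3, 125 and 34.1, with M.6 high and M2.1 below arm D. Noct, the rhythmic deadenylase-like protein nocturnin, was at 2.20, 1.89 and 2.84 CPM against 22.8, 3.78 and 6.89, a difference of −2.26 ± 0.72. M.5 set much of its size, which was −1.21 without that library. Bhlhe40 differed by −0.66 ± 0.69, with overlap, and by −0.07 without M2.1.

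**Figure D2:**
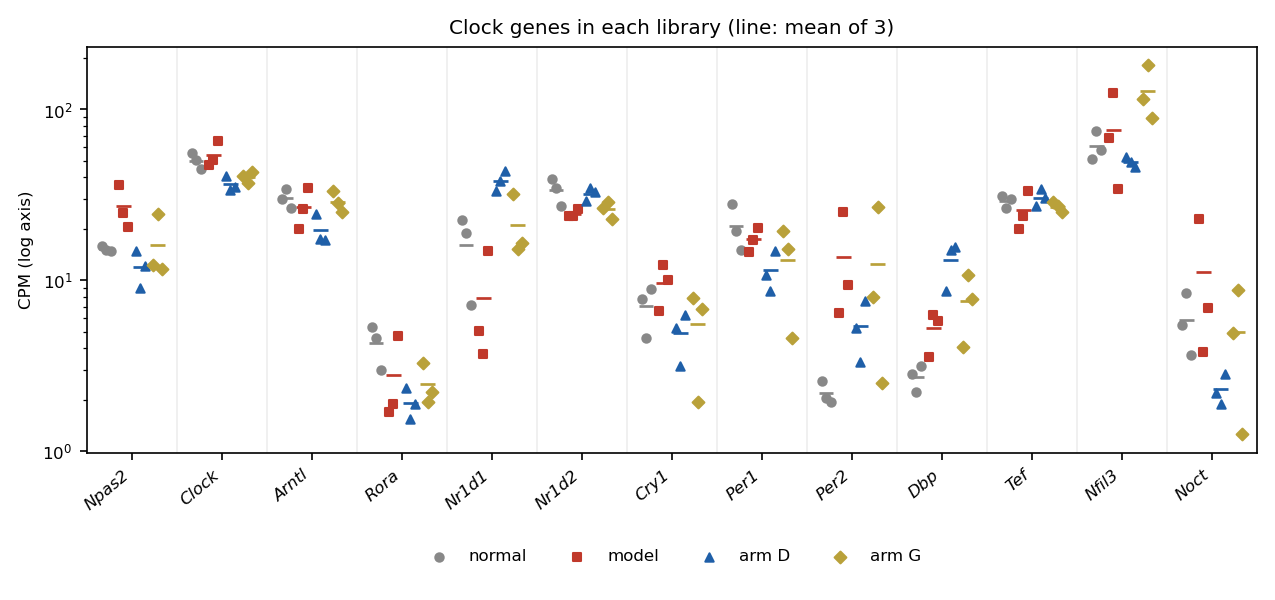
CPM on a log axis of 13 clock genes in each library of the normal, model, arm D and arm G groups, with a line at the mean of 3. The arm D points of Nr1d1, from 33.3 to 43.6 CPM, lie above every other library, while those of Npas2 and Clock lie below the model.

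Among genes that sense glucose and turn it into fat, Gckr and Mlxipl were lower in arm D without overlap, while the medians of the lists around them moved to −0.07 and 0.31 without M2.1. Gckr was at 206, 145 and 179 CPM in arm D and 396, 469 and 238 in the model. Its groups did not overlap and differed by −1.06 ± 0.41, or −0.66 with the mitochondrial share as a covariate, and G.3 at 560 CPM was the highest of all 12. Pfkfb1, which sets the level of fructose 2,6-bisphosphate, was at 17.2, 9.81 and 34.9 CPM against 48.6, 60.8 and 21.7, with overlap. In all, 6 of the 20 glucose genes had a positive difference and 3 were lower at an unadjusted p under 0.05 (15%, against 3.24% of all genes). That count was 1 without D.4 or M.5, and 6 with the mitochondrial share as a covariate or without M.6 and G.3. The median of −0.34 became −0.07 without M2.1.

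Mlxipl, the gene of ChREBP, a glucose-responsive activator of glycolysis and lipogenesis, was at 28.5, 22.9 and 30.1 CPM in arm D and 67.9, 109 and 52.8 in the model. Every arm D library was below all 9 others, of which arm G's G.4 was the lowest at 31.0. The difference was −1.49 ± 0.44 with an unadjusted p of 0.00501, and −1.06 with the mitochondrial share as a covariate. M.6 and G.3 were the highest, at 109 and 102 CPM, and without both the difference was −1.12. The difference of arm D minus arm G was −1.01 ± 0.43.

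The enzymes under ChREBP and SREBP-1c did not share a direction. Acly, which makes cytosolic acetyl-CoA, was at 18.5, 31.6 and 31.6 CPM in arm D and 33.1, 42.1 and 67.7 in the model, without overlap. Its difference was −0.81 ± 0.42, and −0.46 without M2.1. Fasn, the fatty acid synthase, was at 14.9, 23.2 and 18 CPM against 36.9, 13 and 54.5, and Scd, which makes monounsaturated fatty acids, at 430, 252 and 520 against 1010, 54.0 and 1640. In both, M.5 and M2.1 were above arm D and M.6 below it. Srebf1, the gene of SREBP-1c, was at 92.0, 100 and 153 CPM against 174, 39.9 and 572, and its difference of −1.19 ± 0.71 was 0.11 without M2.1. Over the list 9 of 19 genes had a positive difference. Mlxipl alone was lower at an unadjusted p under 0.05 (5.26%, against 3.24% of all genes), a count that was 2 without M.5 and 5 without M.6. The median of −0.10 turned to 0.31 without M2.1. Lpin1, the phosphatidate phosphatase of triglyceride synthesis, was at 5.25, 12.2 and 10.3 CPM against 15.2, 14.5 and 26.7, without overlap, and no gene of the 17 for triglycerides and lipid droplets passed an unadjusted p of 0.05.

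Chka, choline kinase alpha, which starts phosphatidylcholine synthesis, was lower in arm D and most of all against M.5 and M.6. It was at 94.8, 48.8 and 100 CPM in arm D and 524, 735 and 118 in the model, with arm D below each model library. The difference was −2.50 ± 0.69 with an unadjusted p of 0.00338, and the model mean of 459 ± 314 CPM (SD, n = 3) rested on M.5 and M.6. The normal livers, at 72.9, 91.5 and 101 CPM, were near arm D, and in arm G the library G.3 was at 403. With the mitochondrial share as a covariate the difference was −1.58, and without M.6 and G.3 it was −1.96.

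**Figure D3:**
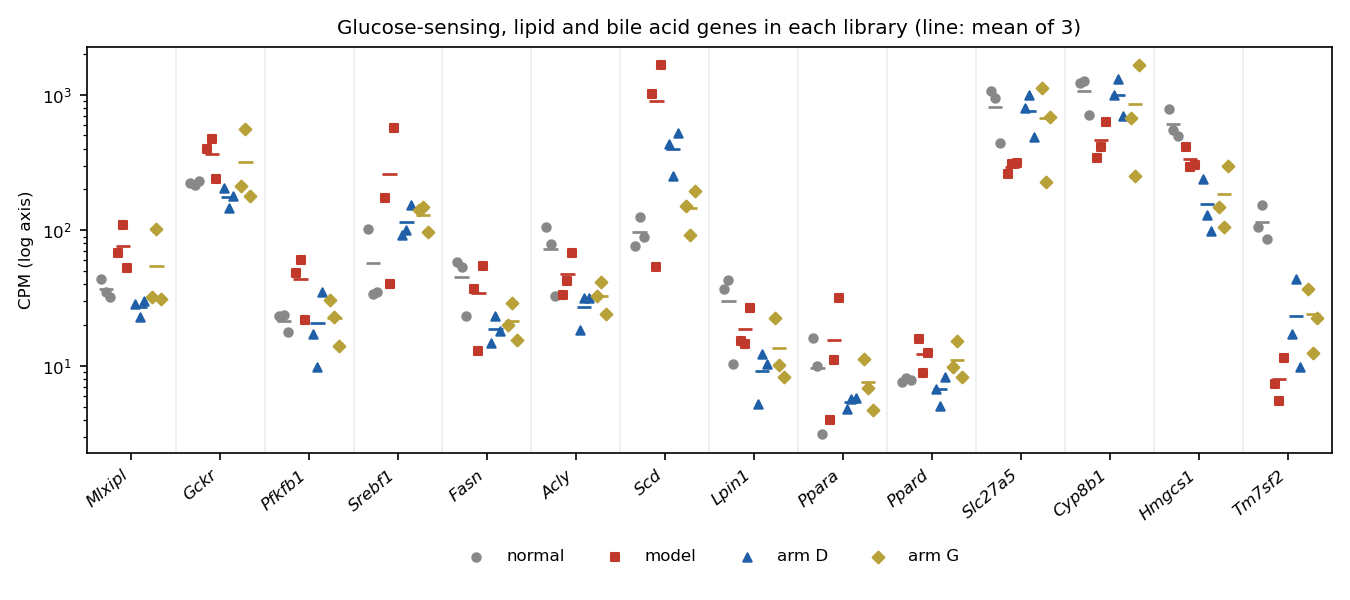
CPM on a log axis of genes of glucose sensing, lipid synthesis, PPAR and bile acids in each library of the normal, model, arm D and arm G groups, with a line at the mean of 3. Mlxipl lies at 22.9 to 30.1 CPM in arm D and 52.8 to 109 in the model, and the model libraries of Srebf1 and Scd spread more widely than the groups differ.

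Bile acid synthesis held genes that were higher in arm D, and the cholesterol pathway held single genes on either side. Slc27a5, which activates bile acids for conjugation and fatty acids for uptake, was at 799, 1000 and 490 CPM in arm D and 260, 307 and 311 in the model, a difference of 1.38 ± 0.52 without overlap. The normal livers, at 1070, 939 and 441 CPM, covered the range of arm D. Cyp8b1, the sterol 12-alpha-hydroxylase that sets the share of cholic acid, was at 993, 1310 and 696 CPM against 344, 408 and 628, without overlap, a difference of 1.12 ± 0.56. Cyp7a1, the hydroxylase that starts and paces bile acid synthesis, was at 165, 166 and 63.6 CPM against 81.5, 71.4 and 204, and did not differ in a set direction (0.14 ± 0.44, and −0.12 without M.6). Of 9 genes of synthesis and conjugation 6 had a positive difference (46.7% over all genes) and 3 did not overlap (33.3%, against 5.93%), with a median of 0.25. Slc27a5 was the 1 gene at an unadjusted p under 0.05 (11.1%, against 3.04% of all genes; 0 without D.4 or M.5, 3 without M2.1).

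Hmgcs1, an early enzyme of cholesterol synthesis, was at 238, 129 and 99.5 CPM in arm D and 409, 292 and 305 in the model, a difference of −1.11 ± 0.42 without overlap. The normal livers, at 786, 549 and 496 CPM, were above both groups. Fdft1, squalene synthase, went the other way, at 76.1, 67.6 and 43.4 CPM against 42.6, 31.0 and 42.9, a difference of 0.68 ± 0.32. Tm7sf2, a sterol reductase late in the pathway, was at 17.2, 43.6 and 9.80 CPM against 7.37, 5.49 and 11.4, and at 106, 154 and 87.0 in the normal livers. Over 24 genes 17 had a positive difference, and the median was 0.20 (0.05 without D.4, 0.38 without M2.1). At an unadjusted p under 0.05, 1 was higher and 1 lower (4.17% each, against 3.04% and 3.24% of all genes). Without D.4 the counts were 0 and 0, and without D.7 they were 3 and 0. Abcg8, part of the sterol exporter into bile, was at 1.21, 1.43 and 1.21 CPM in arm D and 2.75, 3.69 and 1.25 in the model, with overlap. Its difference of −0.98 ± 0.47 was −0.62 without M.6 and −0.55 with the mitochondrial share as a covariate.

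Pltp, the phospholipid transfer protein of plasma lipoproteins, which macrophages also make, was at 41.8, 132 and 57.4 CPM in arm D and 39.2, 13.6 and 24.9 in the model. The groups did not overlap, though D.1 and M.5 were close, and the difference was 1.57 ± 0.47, or 0.94 without D.4. It was the only gene of the 19 for lipoproteins at an unadjusted p under 0.05 (5.26%, against 3.04% of all genes).

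Fatty acid oxidation genes had more negative than positive differences, with wide spread in the model. Ppara, the fasting-activated receptor that drives the pathway, was at 4.82, 5.74 and 5.81 CPM in arm D and 3.97, 11.1 and 31.7 in the model. M2.1 alone set most of that difference, which was −1.52 ± 0.68 with it and −0.45 without it. Acot2, a mitochondrial acyl-CoA thioesterase and PPAR-alpha target, was at 47.7, 18.2 and 22.6 CPM against 46.9, 179 and 30.9, with M.6 far above the rest (−0.40 without M.6, against −1.54 ± 0.62). Angptl4, a secreted inhibitor of lipoprotein lipase and another target, was at 225, 118 and 144 CPM against 287, 476 and 180. In the list 9 of 29 genes had a positive difference and 3 were lower at an unadjusted p under 0.05 (10.3%, against 3.24% of all genes), but 0 without D.4 or D.7 and 1 without M.6. The median of −0.24 was −0.10 without M.6 or without M2.1, and −0.07 without M.6 and G.3. The nuclear-coded genes of the respiratory chain held none of 32 at an unadjusted p under 0.05, while all 13 mitochondrially coded genes were lower with a median of −1.5, which was −0.43 without M.6 and G.3 and −0.45 without M.6.

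Nuclear receptors of the liver were lower in 11 of 12 cases, with a median of −0.41 (−0.62 without M.5, and −0.25 without M2.1, where 6 of 12 were positive). Ppard, the most widely expressed PPAR, was at 6.81, 5.11 and 8.35 CPM in arm D and 15.7, 8.91 and 12.4 in the model, a difference of −0.87 ± 0.32 without overlap. Nr1i2, the xenobiotic receptor PXR, was at 86.9, 79.6 and 93.0 CPM against 131, 355 and 99.6, below all 9 other libraries. M.6 and G.3, at 355 and 388 CPM, stood apart, and with the mitochondrial share as a covariate the difference of −1.17 ± 0.55 became −0.50.

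Kupffer cell markers were the list with the highest share of genes that differed. All 17 had a positive difference, 14 of them at an unadjusted p under 0.05 (82.4%, against 3.04% of all genes), and the median was 1.19. Of the 17, 4 did not overlap between the groups (23.5%, against 5.93% of all genes), and D.1 was near the model in most of them. The mean of the list was 4.96, 6.48 and 5.77 log2 CPM in D.1, D.4 and D.7 and 5.17, 4.25 and 4.34 in M.5, M.6 and M2.1, so that D.1 lay below M.5, while D.4 and D.7 lay above all other libraries of the study. The count of 14 was 3 without D.4 and 6 without M.6. The medians in those fits were 0.74 and 1.05. With the mitochondrial share as a covariate 12 of 17 passed. More cells of a type and more RNA per cell cannot be told apart in whole liver. The summed markers ran from 834 to 2280 CPM in arm D and from 524 to 969 in the model (exact permutation test, two-sided p = 0.2).

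Csf1r, the receptor for the growth factor that macrophages need, was at 51.2, 156 and 124 CPM in arm D and 48.3, 31.7 and 41.2 in the model. Arm D was higher in every library, D.1 by little, and the difference was 1.45 ± 0.39 with an unadjusted p of 0.00276. Adgre1, the F4/80 antigen, was at 14.0, 55.7 and 34.9 CPM against 15.7, 8.01 and 15, and C1qb, a chain of the complement starter C1q, at 78.5, 212 and 133 against 77.0, 21.6 and 47.0. Here too D.4 and D.7 were the libraries apart and D.1 was level with M.5. The lipid-associated macrophage gene Gpnmb was at 7.38, 34.2 and 31.9 CPM against 7.86, 2.61 and 8.89, and Itgax, the integrin CD11c, at 2.27, 15.6 and 8.47 against 2.11, 4.32 and 2.01. Lgals3, galectin-3, differed by 0.90 ± 0.40. Among the 10 tested markers of recruited macrophages, which hold these 3 genes, 7 had a positive difference. Cd9, Spp1 and Fabp5 had negative ones, at −0.42, −0.21 and −0.53. The 3 genes with values here were those at an unadjusted p under 0.05 (30%, against 3.04% of all genes), a count of 1 without D.4 or M2.1. In 0 of the 10 were the groups without overlap (5.93% of all genes above the model). The median of these markers was 0.15, or 0.74 with the mitochondrial share as a covariate, 0.40 without M.5 and 0.05 without M2.1. Their summed level was 1100 to 1850 CPM in arm D and 823 to 1620 in the model (exact permutation test, two-sided p = 0.7).

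Genes of antigen presentation by MHC class II were also highest in D.4 and D.7. RT1-Ba and RT1-Bb, the chains of the rat class II molecule RT1-B, were at 146, 242 and 158 and at 102, 217 and 109 CPM in arm D. In the model they were at 123, 74.2 and 48.8 and at 95.4, 30.7 and 33.1 CPM. Every arm D library was above all 9 others in both genes, though by little over M.5 and, in RT1-Ba, over G.4 at 113 CPM. The differences were 1.15 ± 0.39 and 1.43 ± 0.47, and reads of RT1 genes may be shared among close family members. Ctss, the protease that trims the class II chaperone, was at 32.7, 129 and 95.6 CPM against 40.2, 14.0 and 24.6. All 7 class II genes had a positive difference with a median of 1.15, and 4 passed an unadjusted p of 0.05 (57.1%, against 3.04% of all genes), a count of 0 without D.4 and 7 without M.5. The 8 class I genes were all positive with a median of 0.38 (0.83 without M2.1, 0.63 without D.1). Of these, 1 was at an unadjusted p under 0.05 (12.5%, against 3.04% of all genes).

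Lysosomal genes, abundant in macrophages but made by every liver cell, were higher in arm D in 14 of 16 cases with a median of 0.57. Ctsd, cathepsin D, was at 173, 259 and 226 CPM in arm D and 121, 73.8 and 136 in the model, without overlap, a difference of 0.99 ± 0.39. Npc2, which moves cholesterol out of lysosomes, was at 81.7, 169 and 116 CPM against 87.3, 34.9 and 58.0, and Gusb, beta-glucuronidase, differed by 0.69 ± 0.30. The 4 genes at an unadjusted p under 0.05 (25%, against 3.04% of all genes) became 0 without D.4, D.7 or M.6, and the median was 0.35 without M.6. Kupffer cell markers moved with this list, with D.4 the highest and M.6 the lowest of the 6 libraries in both, and their part in the lysosomal difference was not tested.

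**Figure D4:**
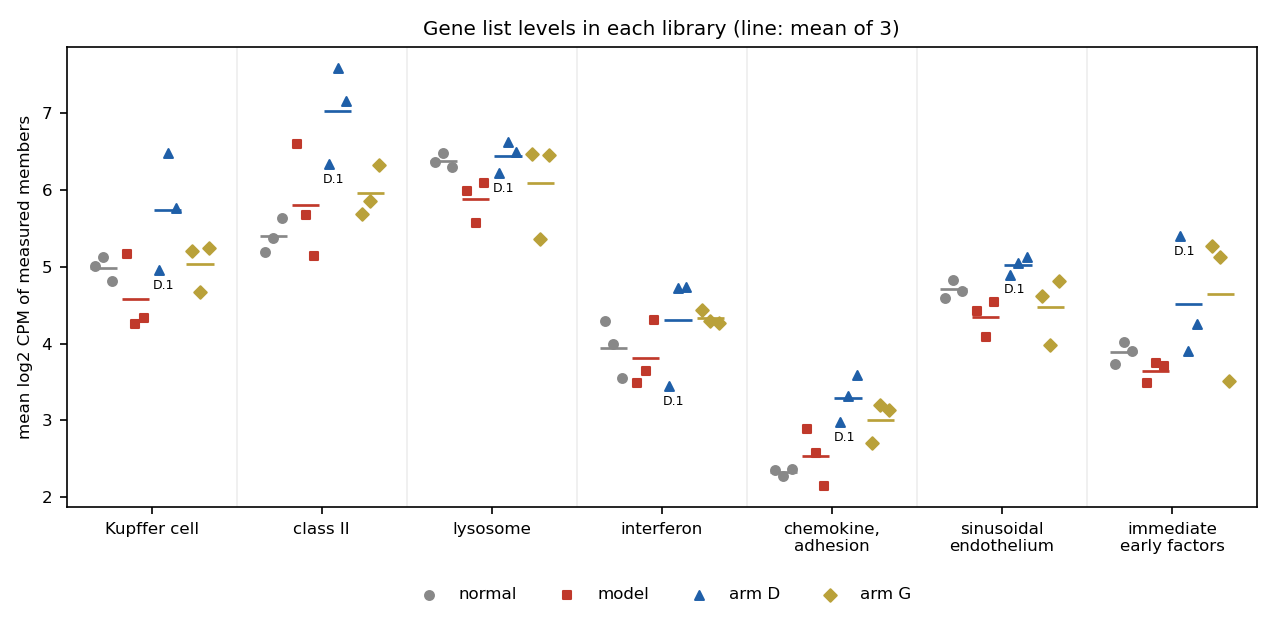
Mean log2 CPM (y axis) of the measured members of 7 gene lists (x axis) in each library of the normal, model, arm D and arm G groups, with a line at the mean of 3 and D.1 named. Kupffer cell markers and class II genes are highest in D.4 and D.7 while D.1 lies near M.5, sinusoidal endothelium is at 4.90 to 5.13 in arm D and at most 4.83 elsewhere, and among arm D the immediate early factors are highest in D.1.

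Inflammatory genes were higher in arm D than in the model more often than not, with D.4 and D.7 above D.1 in most of the genes named. Ccl6, a chemokine of macrophages, was at 98.6, 292 and 227 CPM in arm D and 97.1, 55.6 and 65.2 in the model, a difference of 1.5 ± 0.37. Itgal and Itgb2, the chains of the leukocyte integrin LFA-1, were at 12.6, 52.0 and 46.1 and at 20.3, 80.7 and 50.6 CPM in arm D, against 10.9, 11.9 and 15.8 and 25.2, 18.2 and 17.1 in the model. D.1 again lay within the model range in both integrins. Ccl2, the monocyte attractant, was low, at 1.99, 2.01 and 2.84 CPM against 1.05, 1.53 and 0.434, but above all 9 other libraries. Of 23 chemokine and adhesion genes 21 had a positive difference and 8 passed an unadjusted p of 0.05 (34.8%, against 3.04% of all genes), with a median of 0.83, and the count was 3 without D.7.

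Tlr2, a receptor for bacterial lipoproteins, was at 2.48, 7.97 and 8.84 CPM in arm D and 2.59, 1.08 and 2.17 in the model, a difference of 1.72 ± 0.50. Nlrp3, the sensor of the inflammasome, was at 3.62, 13.3 and 9.32 CPM against 3, 1.80 and 3.58, with D.1 just above the model and the difference at 1.64 ± 0.49. Both genes were low, and D.4 and D.7 were the libraries apart. Toll-like receptor and NF-kB genes had 18 of 24 positive differences and a median of 0.48. These 2 genes were the ones at an unadjusted p under 0.05 (8.33%, against 3.04% of all genes), while 7 passed without D.1, 4 without M.5 and 5 without M2.1.

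Interferon-inducible genes differed mostly in D.4 and D.7. Gbp2 and Gbp5, guanylate-binding proteins, were at 8.66, 29.8 and 62.8 and at 2.55, 8.09 and 16.5 CPM in arm D, and at 16.8, 8.82 and 6.67 and at 3.48, 1.98 and 3.20 in the model. D.1 was within the model range in both, and D.7 was the highest of all 12 libraries. Tap1, the peptide transporter for class I, was at 42.4, 55.5 and 92.9 CPM against 40.3, 29.1 and 36.9. In the list 26 of 31 were positive with a median of 0.54, but Tap1 was the only 1 without overlap of the groups (3.23%, against 5.93% of all genes). At an unadjusted p under 0.05 there were 6 (19.4%, against 3.04% of all genes). That count was 1 without D.7, 3 without M.6, 11 without D.1 and 10 without M2.1. The median was 0.31 without D.4, 0.33 without D.7 and 0.87 without M2.1.

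Genes of the acute phase and of complement and coagulation mostly had positive differences. Lbp, which hands bacterial lipopolysaccharide to its receptor, was at 168, 346 and 247 CPM in arm D and 108, 65.3 and 125 in the model, a difference of 1.35 ± 0.52 without overlap. C4a, complement component C4, was at 156, 509 and 388 CPM against 93.3, 78.2 and 169, a difference of 1.63 ± 0.54, while the normal livers held 408, 488 and 266. Lbp and C4a were lowest in M.6 among the 6 libraries and low in G.3 too, at 43.9 and 123 CPM. In the acute phase list 16 of 17 were positive with a median of 0.63, which was 0.23 with the mitochondrial share as a covariate and 0.34 without M.6. In the list of complement and coagulation 27 of 30 were positive with a median of 0.25, which was 0.03 with that covariate, 0.09 without M.6 and 0.47 without M2.1. Each list had 1 gene at an unadjusted p under 0.05 (5.88% and 3.33%, against 3.04% of all genes), and 0 without D.4. Without M.5, 3 acute phase genes passed, and without M2.1, 4 of complement and coagulation.

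Sinusoidal endothelium was the marker list in which the groups were most cleanly apart. All 15 measured genes had a positive difference with a median of 0.71, and 8 did not overlap (53.3%, against 5.93% of all genes). An unadjusted p of 0.05 was passed by 6 (40%, against 3.04% of all genes). The mean of the list was 4.90, 5.05 and 5.13 log2 CPM in arm D and 4.43, 4.08 and 4.54 in the model, and no arm D library fell into the range of the other 9. The summed markers ran from 646 to 729 CPM against 381 to 489 (exact permutation test, two-sided p = 0.1, the smallest that 3 against 3 can give). Dnase1l3, a secreted DNase of sinusoidal endothelium and macrophages, was at 34.2, 42.1 and 44.1 CPM against 19.7, 10.9 and 21.5, a difference of 1.21 ± 0.31 with an unadjusted p of 0.00189. Cdh5, the endothelial cadherin, was at 31.2, 46.9 and 38.7 CPM against 27.1, 18.2 and 20.9, and Kdr, a receptor for VEGF, at 78.1, 69.4 and 78.1 against 42.7, 35.0 and 60.2. None of the 3 genes overlapped, and unlike most of the macrophage genes named they were higher in D.1 as well. The count of 6 was 2 without M.6 and 4 without D.4, and 6 with the mitochondrial share as a covariate.

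Of the other cells of the liver, T and NK cell markers kept the groups apart by a narrow margin in their sum only, and the rest overlapped. The mean of the T and NK cell list was 1.84, 1.85 and 1.82 log2 CPM in arm D and 1.9, 1.29 and 0.48 in the model. M.5 thus lay above all arm D libraries in that mean. T and NK cell markers summed to 108 to 168 CPM in arm D and 46.0 to 106 in the model (exact permutation test, two-sided p = 0.1), with 14 of 18 positive, a median of 0.74 and 2 at an unadjusted p under 0.05 (11.1%, against 3.04% of all genes). That count was 0 without D.4 or M.6 and 4 without M.5, and the median was 0.37 without M2.1 and 1.13 without M.5. B and plasma cell markers summed to 123 to 166 against 79.7 to 135 CPM, neutrophil markers to 14.4 to 15 against 2.66 to 38.3, stellate cell markers to 384 to 570 against 316 to 557 and cholangiocyte markers to 59.2 to 77.5 against 57.4 to 80.6. Of the markers of adipose tissue and pancreas, Plin1 had no count in any of the 6 libraries. Cd4, a member of the T and NK cell list that rat macrophages express as well as T cells, was at 9.72, 48.6 and 31.8 CPM against 7.37, 6.30 and 12.9. Its part in the summed T and NK cell level was not tested. Of 20 genes of the extracellular matrix 11 had a positive difference, and 1 was lower at an unadjusted p under 0.05 (5%, against 3.24% of all genes). This was Lox, the collagen cross-linking enzyme, at 37.0, 13.2 and 12.6 CPM in arm D and 130, 21.0 and 84.4 in the model. D.1 was above M.6, and the difference was −1.91 ± 0.64. Of 13 stellate cell and fibroblast markers 6 had a positive difference, and 1 was lower at that threshold (7.69%, against 3.24% of all genes). This was Lum, lumican, which had almost no reads in arm D, at 0.213, 0 and 0.182 CPM, and few in the model, at 1.46, 1.89 and 0.0542.

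Immediate early genes, which are induced within minutes by growth factors, stress or tissue handling, were higher in arm D, and here D.1 led. Fos was at 105, 23.8 and 39.5 CPM in arm D and 4.62, 15.6 and 19.5 in the model, a difference of 2.08 ± 0.63 without overlap and 1.25 without D.1. Junb was at 229, 140 and 174 CPM against 55.9, 108 and 56.3, and Btg2, an antiproliferative target of p53, at 301, 121 and 169 against 61.7, 72.8 and 83.3. All 3 were higher in every arm D library, and in arm G they reached 80.7, 323 and 483 CPM in G.1, as high as or near D.1. Atf3, at 95.2, 8.15 and 21.2 CPM against 11.1, 31.0 and 6.45, was high in D.1 only among these 6, and its difference of 1.36 ± 1.09 was −0.13 without D.1. The 15 transcription factors had 13 positive differences, a median of 0.96 and 6 at an unadjusted p under 0.05 (40%, against 3.04% of all genes). Without D.1 that count was 1 and the median 0.47, and the count was 2 without M.5 and 3 without M.6. Of 7 signalling brakes 5 were positive with a median of 0.64, or 0.39 without M2.1.

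Gdf15, a secreted hormone of stressed cells that acts on appetite, followed the same order. It was at 108, 22.8 and 37.0 CPM in arm D and 11.8, 19.4 and 10.7 in the model, without overlap, a difference of 2.01 ± 0.71 and 1.10 without D.1. The normal livers were at 6.92, 4.81 and 12.9 CPM and G.1 at 107. Hmox1, the haem oxygenase that NRF2 and haem induce and that Kupffer cells hold, was at 40.4, 61.2 and 52.7 CPM against 31.8, 32.7 and 23.9, a difference of 0.80 ± 0.34. It was the only 1 of 21 antioxidant genes at an unadjusted p under 0.05 (4.76%, against 3.04% of all genes). Tfrc, the transferrin receptor, was lower, at 34.3, 24.7 and 24.2 CPM against 45.8, 54.3 and 48.8. Ptpn1, a phosphatase that acts on the insulin receptor, was at 6.17, 12.9 and 13 CPM against 3, 5.22 and 7.59. It was the only 1 of 18 insulin signalling genes at that threshold (5.56%, against 3.04% of all genes).

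Arm D lay outside the range of all 9 other libraries in 154 genes, above them in 80 (0.648%) and below them in 74 (0.599%). By the width of the gap the upper 5 were Actb, Lrrc8c, Ccl2, Gfra1 and RT1-Ba, and the lower 5 Lonrf3, Clpx, Ctif, Zfp111 and Itfg2. Actb, cytoplasmic beta-actin, was at 706, 743 and 904 CPM in arm D and 547, 312 and 497 in the model, with 541 in G.4 the highest in arm G. Lrrc8c, a subunit of the volume-regulated anion channel, was at 10.8, 13.7 and 13.5 CPM against 8.34, 4.86 and 6.51. Gfra1, the co-receptor for GDNF, was at 21.6, 23.6 and 20.0 CPM in arm D, 16, 7.29 and 11.6 in the model, 0.192, 1.81 and 3.95 in arm G and 7.30, 4.93 and 2.76 in the normal livers. Its difference from the model was 0.90 ± 0.63 and that from arm G 3.45 ± 0.71. The latter had an adjusted p of 0.999 by edgeR's quasi-likelihood test with Benjamini-Hochberg adjustment. G.1 and G.3 were the lowest libraries of the series for this gene, while G.4 lay among the normal livers.

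Clpx, the unfoldase of the mitochondrial ClpXP protease, was at 178, 156 and 155 CPM in arm D and 247, 388 and 265 in the model, while the other 6 libraries ran from 244 to 302. Ctif, a translation factor of the nuclear cap-binding complex, was at 14.0, 13.3 and 14.1 CPM against 21.0, 45.3 and 24.7, and Itfg2 at 3.83, 4.30 and 4.30 against 7.21, 16.1 and 5.04. In Clpx, Ctif and Itfg2, as in Zfp111, M.6 was the highest model library. Without M.6 and G.3 the differences were −0.62 for Clpx, −0.70 for Ctif, −0.53 for Itfg2 and −0.39 for Zfp111, in place of −0.88, −1.13, −1.18 and −1.15.

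**Figure D5:**
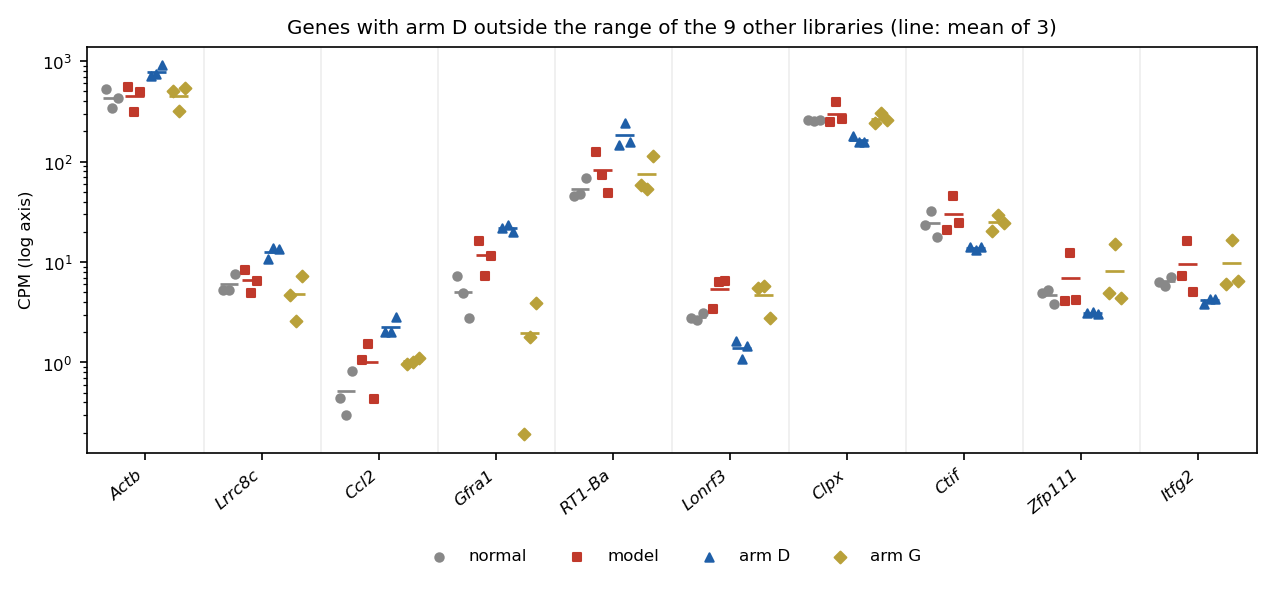
CPM on a log axis of the 10 genes in which arm D lies outside the other libraries by the widest gap, in each library of the 4 groups, with a line at the mean of 3. Arm D lies at 20.0 to 23.6 CPM for Gfra1 against at most 16 elsewhere, and at 155 to 178 for Clpx against at least 244.

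Against the other didymin arm no gene passed either. Of the 12355 genes tested, 423 had an unadjusted p under 0.05 between arm D and arm G and 0 an adjusted p under 0.05. That is a smaller share than the 0.05 of the threshold itself, and fewer genes than the 776 between arm D and the model. The smallest adjusted p, by edgeR's quasi-likelihood test with Benjamini-Hochberg adjustment, was 0.114 for Bcl6. Bcl6, a repressor that limits inflammatory and lipid genes in liver, was at 7.59, 8.95 and 5.93 CPM in arm D, 13.6, 22.1 and 11.2 in the model and 70.8, 71.9 and 26.5 in arm G. Arm D was below all 9 other libraries. Its log2 difference was −1.06 ± 0.38 from the model and −2.91 ± 0.40 from arm G. Hsd17b2, which inactivates oestradiol and testosterone, was at 134, 172 and 115 CPM in arm D, 87.4, 44.5 and 87.6 in the model and 57.0, 51.4 and 45.4 in arm G. Its difference from the model was 0.94 ± 0.28, and that from arm G 1.45 ± 0.29. The sources used here do not say whether arms D and G differed in anything but dose.

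The authors' deposited table of arm D against the model, which holds the 6 libraries of both groups, gives an adjusted p under 0.05 to 7 genes. In the authors' deposited table these are Etnppl (log2 fold change −1.59, adjusted p 0.00141), Cmya5 (−1.43, 0.0185), Ptprf (−1.54, 0.0375), and, at an adjusted p of 0.041, Chka (−2.50), Nr1d1 (2.25), Fam222a (−2.98) and Mcm10 (−1.51). The fold changes here were near those, at −1.58, −1.42, −1.54, −2.50, 2.27, −2.94 and −1.5 in that order, but each adjusted p was 0.783 in edgeR's quasi-likelihood test with Benjamini-Hochberg adjustment on 12 libraries and 0.685 on the 6. Nr1d1 and Fam222a were also among the 14 genes that DESeq2 called on the 12 libraries, which further held Gfra3, Lonrf3, Eml5, Akr1b1, Hpgds, Lrg1, Pla1a, Zfp354a, Zfp612, Tspan15, Lacc1 and the uncharacterised LOC102546864.

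Of these, Etnppl, which breaks down phosphoethanolamine, was at 39.6, 34.2 and 46.8 CPM in arm D and 97.5, 142 and 120 in the model, with a small spread in both groups. In arm G it ran from 36.6 to 238, the highest again in G.3. Ptprf, a receptor tyrosine phosphatase of hepatocytes and other epithelia, was at 177, 138 and 161 CPM against 383, 659 and 340, and at 728 in G.3. Mcm10, a factor of replication start, was at 3.19, 5.11 and 4.30 CPM against 10.6, 13.6 and 11.5, and Cmya5 at 7.59, 5.97 and 5.99 against 17.0, 17.5 and 17.8. In all 4 genes arm D was below every model library. With the mitochondrial share as a covariate the differences were −1.25 for Etnppl, −1.08 for Ptprf, −1.40 for Mcm10 and −1.17 for Cmya5.

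Ccnd1, cyclin D1, which carries growth signals into the cell cycle, was at 37.6, 50.9 and 39.9 CPM in arm D and 77.4, 58.7 and 83.5 in the model, a difference of −0.77 ± 0.28 without overlap. The normal livers, at 42.3, 19.3 and 29.2, and arm G, at 38.4, 34.5 and 33.7, were also below the model. In the cell cycle list of 32 genes it was the 1 gene lower at an unadjusted p under 0.05, and 1 was higher (3.12% each, against 3.24% and 3.04% of all genes). Of 17 growth hormone and sex-biased genes, 1 was higher and 1 lower at that threshold (5.88% each, against 3.04% and 3.24% of all genes). The lists that follow held 0 or 1 gene at it, against 6.28% of all genes in either direction. There were 0 of 23 genes of ER stress, 0 of 36 ribosomal proteins, 0 of 16 conjugating enzymes and 0 of 9 heat shock genes. There were also 0 of 25 genes of the urea cycle and amino acid breakdown, and 1 of 16 drug-metabolising P450 enzymes. Lists this short can hold 0 at that share, so the counts do not show them to be flat. The heat shock genes had 1 positive and 8 negative differences. A gene that misses the threshold here is not shown to be alike in both groups, since the common biological coefficient of variation between libraries was 0.409.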

How the data were processed

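Per the labels' protocols, rat liver RNA was taken up in Trizol and libraries were prepared with the NEBNext Ultra chemistry. The authors deposited 3 tables of 6 libraries each, whose headers name the values used here as read counts, and they are whole numbers. The model columns stand in each, with no differing count. Not given in the sources used here are the aligner, the counter, the annotation and the use of strand. The submitters' processing notes name DESeq2 (no version) and mm9, a mouse build, although 14408 of 16558 gene names equal a current rat symbol and 749 a synonym, so no coordinates come from the files. The authors' deposited table holds p-values and log2 fold changes of its own, quoted only under that name, and 36 per-sample columns of other values were not used. Columns were matched to groups by their letter, since their numbers do not follow the labels' replicate numbers. The sources used here do not explain the name M2.1.

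Since the labels name no animal for a library, the p-values describe library-to-library spread, which may be technical. All pairs of libraries within arm D and within the model differed beyond counting noise. Total counts were 12469914 to 15521648.

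The test was that of edgeR 4.0.16 (R 4.3.3): filterByExpr, TMM scaling, and 1 quasi-likelihood fit of all 12 libraries with a mean per group (8 residual degrees of freedom), contrast arm D minus the model. Benjamini-Hochberg adjustment ran over all 12355 genes. Mean list levels use log2 CPM with a prior count of 2. Lists are described by counts and medians, not tested. Alternatives were RLE scaling, other filters, the 6 libraries alone, DESeq2 1.42.0, limma-voom (limma 3.58.1) with and without quality weights, a robust prior, leaving out the mitochondrial genes, the mitochondrial share as a covariate, and leaving out libraries. The fit was also run on simulated counts. These had less spread between libraries than the real ones and the same mean composition in each, apart from the genes changed in arm D. That run therefore does not show how the test behaves on these libraries. Single values of 3 against 3 libraries had exact permutation tests, two-sided.

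The comparison, the 45 gene lists and the rule for naming genes were chosen with earlier results of these data known. The rule takes the 12 genes a direction of smallest p with a symbol and a mean of at least 1 CPM, up to 3 members of each list by p and every clock gene, a set of key genes, the 5 a direction farthest outside the 9 other libraries, and genes that pass in the authors' deposited table. Not all are named, and some are not reported here. Promoters are from RefSeq, build GRCr8, matched by symbol.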

Additional observations from a re-analysis of the deposited data

How the results depend on the processing

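No gene passed an adjusted p of 0.05 under any of the 23 alternatives but DESeq2, which called 14. The count at an unadjusted p under 0.05 was 2479 in limma-voom with quality weights, and 318 (without D.4) to 1802 (without M2.1) with 1 of the 12 libraries left out. Of the 108 genes named with values, 101 kept their sign in all 23 alternatives and 7 did not, for which the cause was not tested. With 1 library left out the log2 difference ran from −0.13 to 2.24 for Atf3, −0.07 to 0.44 for Cry2, −0.12 to 0.79 for Cyp7a1, −0.30 to 0.95 for Hlf, −0.35 to 0.51 for Per3, −0.79 to 0.10 for Rora and −1.70 to 0.11 for Srebf1. Without M.6 and G.3 it was −0.02 for Cry2, −0.09 for Cyp7a1 and −0.27 for Hlf. Hlf was at −0.08 with the mitochondrial share as a covariate, and Per3 at −0.01 on the 6 libraries alone and −0.02 in limma-voom. Of 23 list medians, 16 stayed within the spread, 6 moved beyond it with the same sign, and that of fatty acid synthesis turned, to 0.11 in limma-voom, 0.12 with quality weights and at most 0.31 (without M2.1; lowest −0.29) with 1 library left out.

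No paired analysis was possible because the columns carry no replicate number of the labels that the groups share. Counts outside the mitochondrial genome were 7173229 in M.6 and 4869054 in G.3 and 10887482 to 14761817 in the others, so these libraries were shallower for the genes described. With 3 libraries a group, even differences much larger than their standard errors did not pass the adjusted test. Examples are Gfra3 at 1.66 ± 0.33 and Lonrf3 at −1.96 ± 0.40. Smaller differences could therefore be missed.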
